A study of Mus musculus with 6 samples.

Results

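The circadian clock genes described here are 10 mouse genes chosen by symbol, Arntl (also written Bmal1), Clock, Per1, Per2, Per3, Cry1, Nr1d1, Nr1d2, Dbp and Tef, out of 54838 gene identifiers in the count files. All 10 were found, and all 10 were among the 17086 genes that passed the filter on low counts. Glomeruli, the capillary tufts where the kidney filters blood, were isolated from 3-week-old mice and their RNA was sequenced. A set of 3 libraries is labelled KO with the genotype bPIX -/- (animals 146, 147 and 148), where the series describes a loss of bPIX restricted to podocytes, and 3 libraries are labelled CTRL with the genotype wild type (animals 157, 162 and 163). bPIX is the product of Arhgef7. Podocytes are epithelial cells whose foot processes wrap the glomerular capillaries. The sources used here do not state the Cre driver, the strain, the sex or the time of day at which tissue was taken.

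File names and sample labels contradict each other: every library labelled KO has a file named for a CTRL animal, and every library labelled CTRL one named for a KO animal. KO and CTRL always mean the label here, and should the file names be correct instead, each difference would keep its size and change its sign. Arhgef7 itself stood at 132.8, 89.6 and 85.9 CPM (read counts scaled to a common library size, with TMM factors) in KO 146, 147 and 148, against 91.9, 94.1 and 88.4 CPM in CTRL 157, 162 and 163, and did not separate the groups (log2 fold change 0.17, SE 0.17, edgeR quasi-likelihood Benjamini-Hochberg adjusted p = 0.544). The count covers all exons and all cell types of the preparation, so it does not check the deletion. Library totals ranged from 39841396 to 51917945 gene counts, with KO 146 the highest. KO 146 also stood apart on the first principal component, at 82.7, against 26.1 and 3.5 for KO 147 and 148 and -42.3 to -34.7 for the CTRL libraries. Podocyte markers were detected in all 6 libraries, with no marker at 0, and proximal tubule markers had the higher sum in each. The podocyte list of 12 genes summed to 8623, 3626 and 2333 CPM in KO 146, 147 and 148, against 938 to 1152 CPM in CTRL libraries. The proximal tubule list of 17 genes summed to 18100.0, 27140.0 and 30320.0 CPM in the same KO libraries, against 37530.0 to 40600.0 CPM in CTRL libraries.

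The mammalian clock is a loop of transcription and repression. The proteins BMAL1 (encoded by Arntl) and CLOCK bind E-boxes together and switch on the Per, Cry, Nr1d and Dbp genes. PER and CRY proteins then return to the nucleus and repress BMAL1 and CLOCK. The REV-ERB receptors encoded by Nr1d1 and Nr1d2 repress Arntl through ROR elements, and DBP and TEF, transcription factors of the PAR bZIP family, bind D-boxes. In kidney the clock is known for daily rhythms of filtration and of salt and water excretion, and podocytes have a clock of their own. In a tissue with a running clock Arntl peaks at nearly the opposite time of day from Nr1d1 and Dbp, so a single time of sampling catches some members high and others low.

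Promoter stretches of 5 members are shown, those in which an E-box, a D-box or a ROR element was found, so that the letters of these elements can be seen in place. They are RefSeq sequences on GRCm38.p6, written 5′ to 3′ on the strand of the gene with the element in capitals. RefSeq promoter windows, from 250 bases before to 50 bases after a start site, were at hand for 9 members and not for Per2. The E-box searched was CACGTG, which reads the same on both strands. It lay in windows of 3 members, Per1, Cry1 and Tef, and in 7.15% of all 32817 promoter windows. Some genes have several windows, and by gene the share was 8.09% of the 26994 genes with a window. Per1 has 2 windows. Its E-box lies in the window at chr11:69098699-69098998, which is inside the gene, whose annotated start is 69095217.
Per1 E-box (chr11:69098748-69098823, plus strand): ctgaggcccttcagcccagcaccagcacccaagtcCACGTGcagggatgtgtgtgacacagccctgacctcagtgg
Cry1 E-box (chr10:85185074-85185149, minus strand): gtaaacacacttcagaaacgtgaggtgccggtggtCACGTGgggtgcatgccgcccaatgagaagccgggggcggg
Tef E-box, upstream start (chr15:81802511-81802586, plus strand): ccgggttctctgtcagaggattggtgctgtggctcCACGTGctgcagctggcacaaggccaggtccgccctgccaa
Tef E-box, downstream start (chr15:81811241-81811316, plus strand): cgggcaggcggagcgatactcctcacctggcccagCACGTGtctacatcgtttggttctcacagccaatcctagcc

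The variant E-box CACGTT, searched on both strands, lay in windows of Cry1 and Nr1d1 and in 4.69% of all windows (5.44% of genes). The D-box was searched as TTATGTAA on both strands. Among members it was found in Per3 alone, which holds it at 2 places upstream of its start. It lay in 0.935% of all windows (1.1% of genes). The ROR element was searched as AGTAGGTCA on both strands. Among members it was found in Arntl alone, just after a start site, and it lay in 0.192% of all windows (0.222% of genes). The cAMP response element TGACGTCA was found in no member's window and in 1.79% of all windows (2.03% of genes). A match is a match of letters and does not show that a factor bound there.
Per3 D-boxes (chr4:151044781-151044905, minus strand): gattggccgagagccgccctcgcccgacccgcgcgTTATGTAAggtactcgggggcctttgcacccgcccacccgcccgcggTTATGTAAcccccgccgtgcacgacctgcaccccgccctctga
Arntl ROR element (chr7:113207529-113207558, plus strand): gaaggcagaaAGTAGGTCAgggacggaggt

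The members spanned a wide range of levels, with the output factor Dbp at the top and Arntl at the bottom in both groups. Levels of different genes were compared as CPM per kilobase of annotated exon, which counts every annotated exon base and so understates genes with long, little used exons. Dbp averaged 64.2 ± 9.89 CPM per kilobase in KO libraries and 57.9 ± 6.14 in CTRL libraries (SD, n = 3 each here and below). Arntl averaged 0.272 ± 0.0764 CPM per kilobase in KO libraries and 0.265 ± 0.0600 in CTRL libraries. The ratio of Dbp to Arntl per exon base was 205.9, 336.5 and 199.8 in KO 146, 147 and 148, against 155.0, 286.4 and 245.0 in CTRL 157, 162 and 163. Dbp was far above Arntl in all 6 libraries, and the groups overlapped. In KO libraries the order below Dbp was Nr1d1 (39.8 CPM per kilobase), Tef (29.6), Nr1d2 (23.7), Per1 (6.32), Per2 (3.52), Clock (3.47), Per3 (2.68) and Cry1 (1.60). In CTRL libraries the order was Tef (35.2), Nr1d1 (31.6), Nr1d2 (22.2), Per1 (4.88), Per2 (3.39), Clock (3.17), Per3 (2.435) and Cry1 (0.970). Ranges of neighbours overlapped in KO libraries for Dbp with Nr1d1, Nr1d1 with Tef, Per2 with Clock and Clock with Per3. In CTRL libraries they overlapped for Tef with Nr1d1, Per1 with Per2 and Per2 with Clock. The only change of rank between the groups was that of Tef and Nr1d1, whose ranges overlapped in each group.

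**Figure D1:**
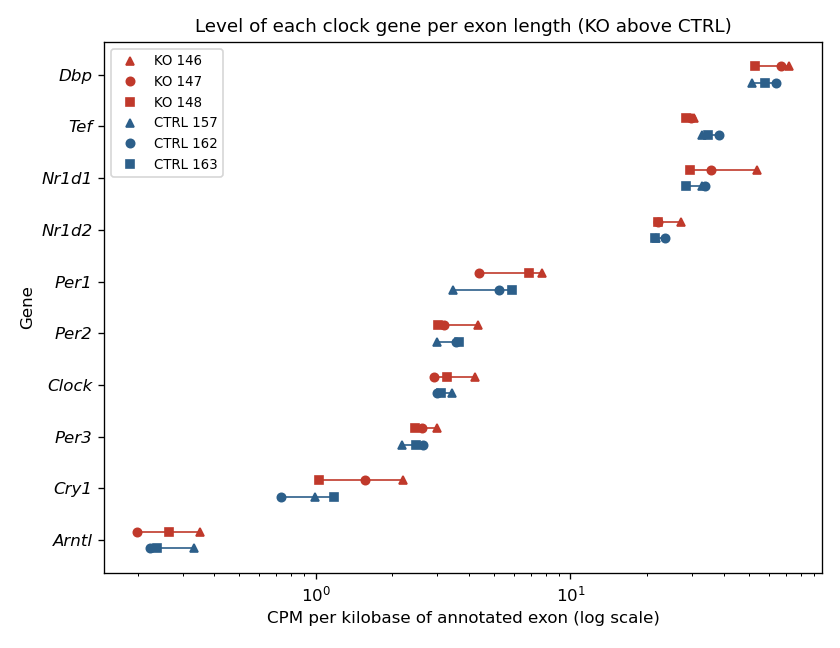
Level of each clock gene per kilobase of annotated exon, on a log axis, with 1 point per library and a line over the range of each group (KO above CTRL). Dbp, Tef, Nr1d1 and Nr1d2 lie above 20 CPM per kilobase in every library, and Arntl lies below 0.4.

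None of the 10 members was called between the groups. By edgeR at an adjusted p below 0.05 the count was 0 of 10, against a background of 1.01% of the 17086 tested genes (173 called, 0.591% higher and 0.421% lower in KO; 58.4% of the calls were higher, or 69.5% when scaled by library totals). At an unadjusted p below 0.05 the count was 1, Tef, against 29.3% of tested genes. DESeq2 and limma-voom also called 0 members, where they called 17.3% and 0.796% of tested genes, and so did edgeR with no filter on low counts, which called 2.72%. Of the 10, 9 had a positive log2 fold change, as did 49.3% of tested genes, and 1, Tef, a negative one, with a median of 0.13 beside -0.01 over all tested genes. Groups did not overlap for 1 member, again Tef, against 41.5% of tested genes, which were higher in KO for 21.9% and lower for 19.6%. The intervals below show how large a difference each value still allows.

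**Figure D2:**
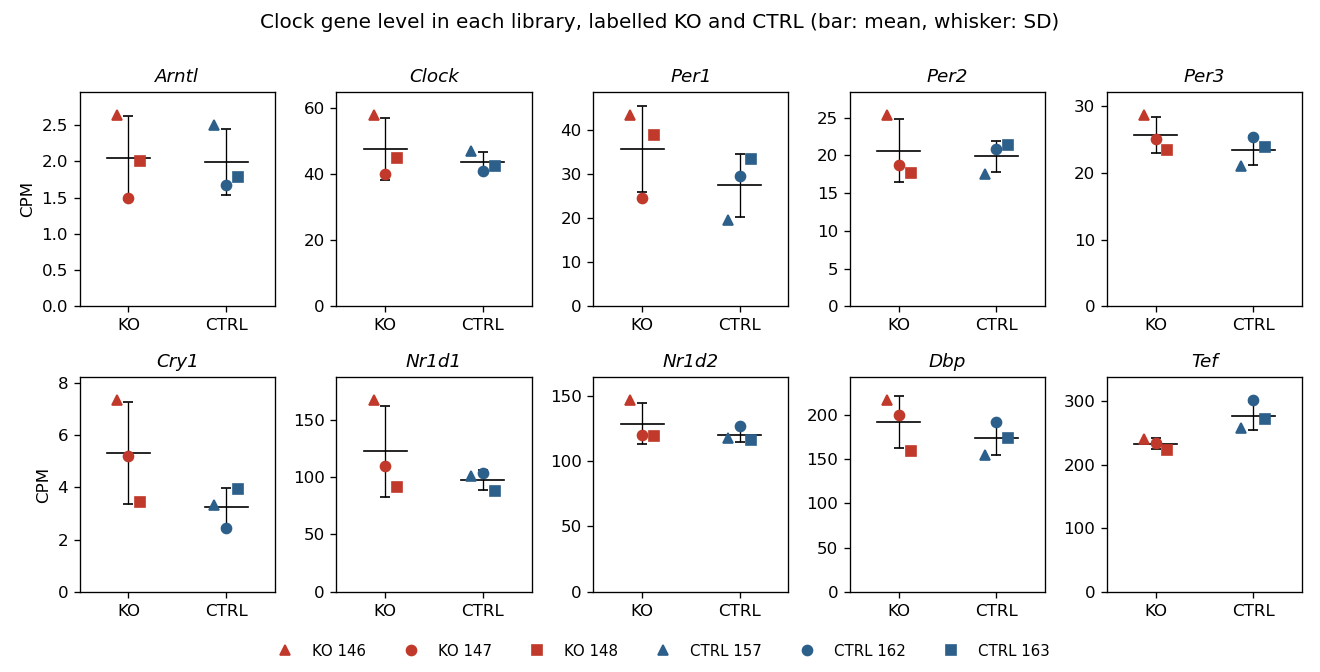
CPM of each clock gene in every library, KO left of CTRL in each panel, with the mean as a horizontal line and the SD as a whisker. KO 146 (red triangle) is the highest library for all genes except Tef, and Tef is the one gene whose groups are apart.

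The activator pair showed no difference beyond the spread. Arntl (ENSMUSG00000055116, chromosome 7, 113207465 to 113314126, plus strand, GRCm38 as for all positions here) was counted 156, 62 and 91 times in KO 146, 147 and 148, against 108, 64 and 79 times in CTRL 157, 162 and 163. This came to 2.64, 1.496 and 2.002 CPM in KO libraries, against 2.51, 1.68 and 1.79 CPM in CTRL libraries. The highest KO and the highest CTRL library were close, and the lowest was KO 147. The log2 fold change, KO minus CTRL, was 0.04 (95% interval -0.61 to 0.70, edgeR adjusted p = 0.926), an interval that spans 0.657-fold to 1.62-fold. Clock (ENSMUSG00000029238, chromosome 5, 76209868 to 76304792, minus strand) stood at 57.9, 39.9 and 44.9 CPM in KO libraries, against 47.1, 40.9 and 42.5 CPM in CTRL libraries. KO 146 lay above all other libraries and KO 147 below them. Its log2 fold change was 0.13 (95% interval -0.22 to 0.48, edgeR adjusted p = 0.586).

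Among the repressors, Cry1 and Per1 had the largest positive values and the widest spread within groups, and neither was called. Cry1 (ENSMUSG00000020038, chromosome 10, 85131700 to 85185064, minus strand), which encodes the repressor cryptochrome, was counted 433, 216 and 156 times in KO 146, 147 and 148, against 143, 93 and 175 times in CTRL 157, 162 and 163. This was 7.34, 5.21 and 3.43 CPM in KO libraries, against 3.32, 2.44 and 3.95 CPM in CTRL libraries. KO 146 and 147 lay above every CTRL library and KO 148 lay among them. The log2 fold change was 0.72 (SE 0.31, 95% interval -0.03 to 1.47, edgeR adjusted p = 0.183). Without KO 148 it was 0.95 and just passed the threshold (edgeR adjusted p = 0.0497, where 18.3% of genes were called), and without KO 146 it was 0.40 (adjusted p = 0.319). Over all alternatives its adjusted p ran from 0.0497 to 0.775. Cry1 against its paralog Cry2, per exon base, was 0.476, 0.463 and 0.343 in KO libraries, against 0.324, 0.220 and 0.348 in CTRL libraries, and the groups overlapped narrowly.

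Per1 (ENSMUSG00000020893, chromosome 11, 69095217 to 69109960, plus strand), a period gene that light, cAMP and glucocorticoids also induce, stood at 43.4, 24.6 and 38.8 CPM in KO 146, 147 and 148, against 19.6, 29.5 and 33.3 CPM in CTRL 157, 162 and 163. The groups overlapped, with KO 147 below 2 of the CTRL libraries. Its log2 fold change was 0.38 (95% interval -0.26 to 1.01, edgeR adjusted p = 0.379). Per2 (ENSMUSG00000055866, chromosome 1, 91415982 to 91459324, minus strand) stood at 25.4, 18.8 and 17.7 CPM in KO libraries, against 17.5, 20.8 and 21.3 CPM in CTRL libraries. Apart from KO 146 the KO libraries lay within the CTRL range, and the log2 fold change was 0.05 (95% interval -0.33 to 0.44, edgeR adjusted p = 0.842). Per3 (ENSMUSG00000028957, chromosome 4, 151003652 to 151044665, minus strand), the period gene with the D-boxes above, stood at 28.7, 25.0 and 23.5 CPM in KO libraries, against 21.0, 25.3 and 23.9 CPM in CTRL libraries. Its log2 fold change was 0.14 (95% interval -0.13 to 0.41, edgeR adjusted p = 0.446). The 3 period genes did not keep a fixed ratio, since Per1 over Per2 per exon base was 1.78, 1.37 and 2.27 in KO libraries, against 1.16, 1.48 and 1.63 in CTRL libraries.

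The REV-ERB genes were highest in KO 146, and the other KO libraries lay within or close to the CTRL range. Nr1d1 (ENSMUSG00000020889, chromosome 11, 98767932 to 98775333, minus strand), which encodes REV-ERBα, stood at 166.8, 109.5 and 91.0 CPM in KO 146, 147 and 148, against 100.8, 103.5 and 87.6 CPM in CTRL 157, 162 and 163. KO 148 lay within the CTRL range and KO 147 just above it. The log2 fold change was 0.33 (95% interval -0.20 to 0.86, edgeR adjusted p = 0.352), and 0.04 without KO 146. Nr1d1 shares 263 exon bases, 8.5% of its own, with Thra on the opposite strand. The strand setting of the counts is not given, so whether reads there were counted for Nr1d1 is not known. Nr1d2 (ENSMUSG00000021775, chromosome 14, 18204054 to 18239127, minus strand), which encodes REV-ERBβ, stood at 146.4, 119.7 and 119.0 CPM in KO libraries, against 117.7, 126.9 and 116.0 CPM in CTRL libraries. Its log2 fold change was 0.09 (95% interval -0.16 to 0.35, edgeR adjusted p = 0.588).

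The PAR bZIP outputs had values of opposite sign, and neither was called. Dbp (ENSMUSG00000059824, chromosome 7, 45705088 to 45710203, plus strand) stood at 216.5, 200.3 and 159.1 CPM in KO 146, 147 and 148, against 154.8, 191.5 and 174.0 CPM in CTRL 157, 162 and 163, and the groups overlapped. Its log2 fold change was 0.15 (95% interval -0.19 to 0.49, edgeR adjusted p = 0.522). Dbp shares 539 exon bases, 18.0% of its own, with Sphk2 on the opposite strand, and whether reads there were counted for Dbp is not known. Tef (ENSMUSG00000022389, chromosome 15, 81802421 to 81826863, plus strand) stood at 241.2, 234.3 and 224.1 CPM in KO libraries, against 257.9, 301.7 and 271.7 CPM in CTRL libraries, so that every KO library lay below every CTRL library. This was true of 19.6% of tested genes. The log2 fold change of Tef was -0.25 (SE 0.10, 95% interval -0.48 to -0.02, edgeR adjusted p = 0.152). Without KO 146 it was -0.28 (edgeR adjusted p = 0.0450, where 17.2% of genes were called). Scaled by library totals, which moved the median of all genes to 0.13, it was -0.11 (adjusted p = 0.542), and over all alternatives the adjusted p ran from 0.0450 to 0.542. The ratio of Dbp to Tef per exon base, which needs no scaling between libraries, was 2.36, 2.25 and 1.87 in KO libraries, against 1.58, 1.67 and 1.68 in CTRL libraries. The groups did not overlap in this ratio, which was formed after the values were seen and is given with no test.

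**Figure D3:**
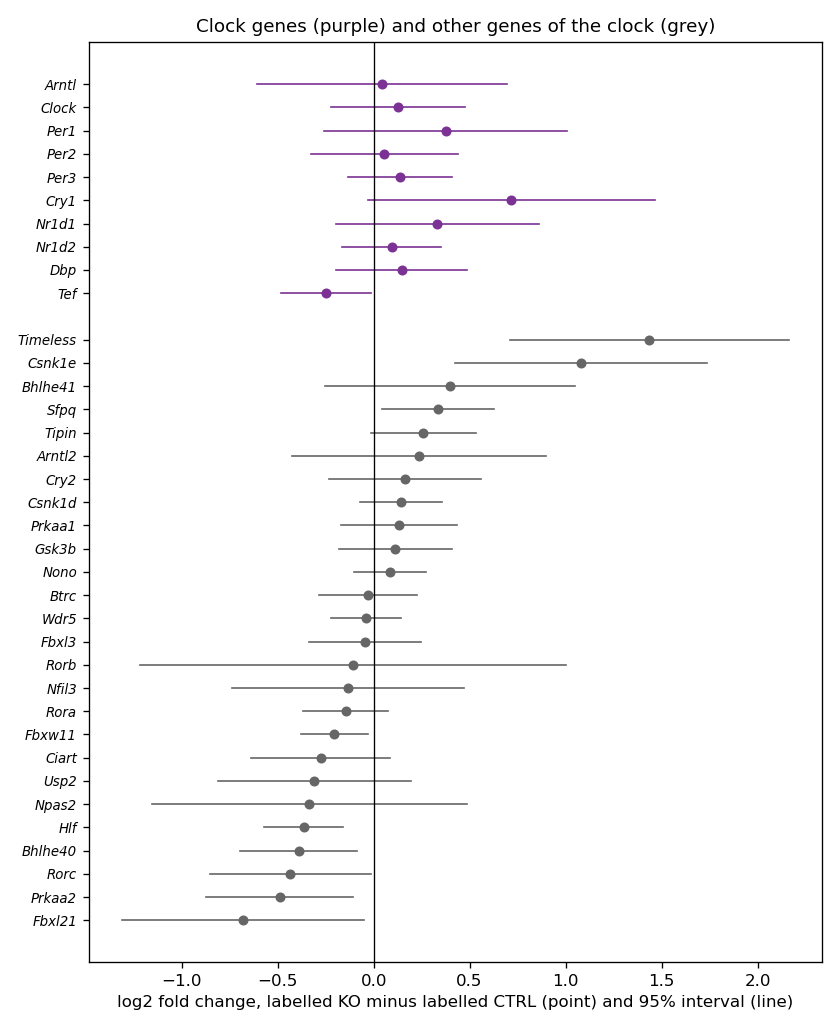
Log2 fold change, KO minus CTRL, with its 95% interval for the 10 clock genes (purple) and 26 other genes of the clock (grey, ordered by value). Among the clock genes the interval of Tef alone lies to 1 side of 0, and Timeless and Csnk1e have the largest values of the other genes.

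The spread between libraries differed widely among members. Folds over all 6 libraries include any difference between the groups, and were taken from log2 CPM with a prior count of 2. By this measure the highest level was 2.97 times the lowest for Cry1, 2.22 times for Per1, 1.90 times for Nr1d1 and 1.74 times for Arntl. It was 1.26 to 1.45 times the lowest for the other members. The within-group SD of log2 CPM was 0.46 for Cry1 and 0.42 for Per1, larger than in 84.1% and 80.8% of tested genes. This SD was 0.09 for Tef and 0.13 for Nr1d2, larger than in 15.6% and 28.6%. Dbp had an SD of 0.20, larger than in 47.3% of tested genes.

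Most of the positive values were largest in KO 146. Of the 10 members, 9 were highest in KO 146, where 36.0% of all tested genes had their highest value. The median member lay 0.39 above the CTRL mean on the log2 scale in KO 146, at -0.04 in KO 147 and at 0.00 in KO 148. The KO libraries fell in the order 146, 147, 148 for 7 members, against 29.3% of tested genes. Without KO 146 the median log2 fold change of the members was 0.01, and the values of Arntl, Clock, Per2 and Nr1d2 were -0.19, -0.05, -0.13 and -0.02. Markers of glomerular cell types fell in the same order of libraries, and proximal tubule markers in the opposite one. The mean of the podocyte markers lay 2.97, 1.68 and 1.09 above the CTRL mean (log2) in KO 146, 147 and 148, that of glomerular endothelial markers 2.55, 1.4 and 0.82, and that of mesangial markers 2.67, 1.30 and 0.83. All 12, 12 and 11 markers of these lists had positive log2 fold changes. The mean of the proximal tubule markers lay at -1.05, -0.55 and -0.36 in the same libraries, and all 17 had negative values, of which 1 was called. With the proximal tubule mean as a covariate, 8 of the 10 clock genes had a negative value where edgeR had given a positive one. Per1 stood at 0.03 and Tef at -0.36, and 0 were called, against 1.98% of tested genes. The edgeR adjusted p ran from 0.058 (Nr1d1) to 0.987 (Per1). This mean lay at -0.03 to 0.03 in CTRL libraries and at -1.05 to -0.36 in KO libraries, so the groups did not overlap in it. Its slope in the fit rests mainly on the differences among the KO libraries, with KO 146 the furthest out. The fit separates mean and label poorly. Covariate values of other genes below share this limit, with edgeR adjusted p from 0.0673 to 0.962. The part of the cell type mix in the values of the clock genes was not tested. In such bulk samples fewer cells of a type and less RNA per cell cannot be told apart.

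**Figure D4:**
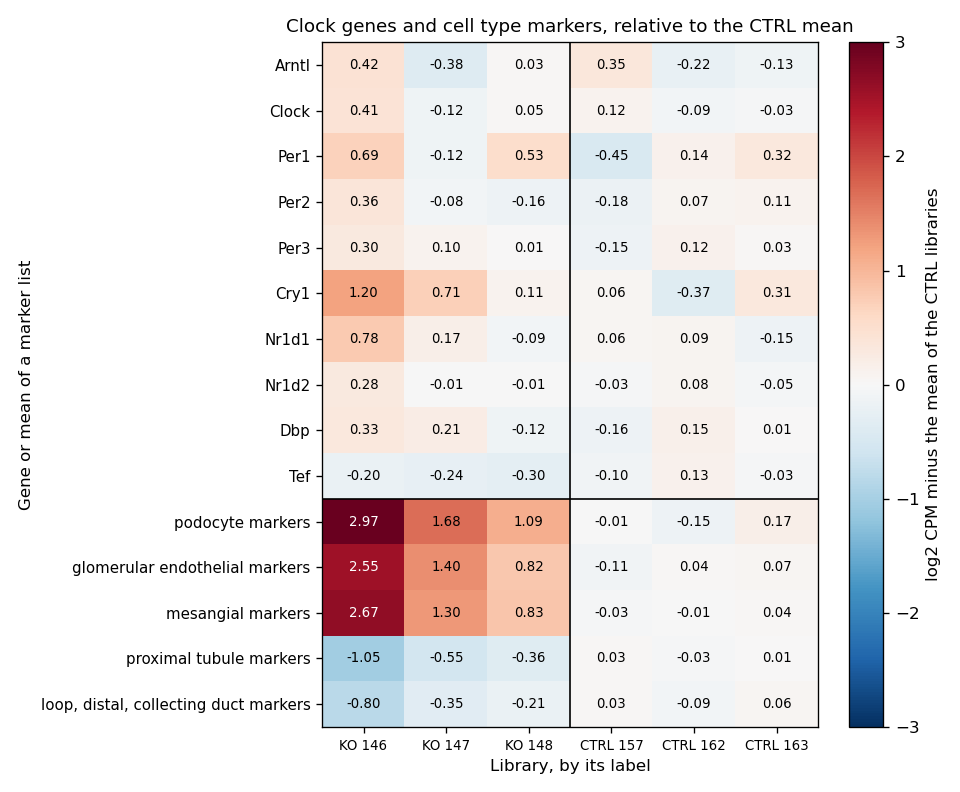
Log2 CPM of each clock gene, and mean log2 CPM of each marker list, minus the mean of the CTRL libraries, per library (KO left of CTRL). KO 146 is red for 9 clock genes, in the column where podocyte markers are at 2.97 and proximal tubule markers at -1.05.

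No other gene of the clock was called by edgeR, and Timeless and Csnk1e had the largest positive values. Of 26 genes (further activators, repressors, kinases, ligases and cofactors), edgeR called 0 in either direction and limma-voom 0, while DESeq2 called 4, against 17.3% of tested genes. At an unadjusted p below 0.05 edgeR gave 3 higher and 6 lower, against 29.3% of tested genes in either direction. A positive value was found for 11, against 49.3% of tested genes, and a negative one for 15, with a median of -0.04 beside -0.01 over all tested genes. Timeless, which in mammals stabilizes replication forks, stood at 17.9, 10.5 and 7.70 CPM in KO libraries, against 4.65, 4.23 and 4.47 CPM in CTRL libraries (log2 fold change 1.44, SE 0.30, edgeR adjusted p = 0.0753). Csnk1e, a casein kinase that phosphorylates PER proteins, stood at 47.3, 28.4 and 22.1 CPM in KO libraries, against 13.9, 15.7 and 16.7 CPM in CTRL libraries (1.08, SE 0.27, adjusted p = 0.0781). Both genes had their highest level in KO 146 and fell in the order 146, 147, 148. With the proximal tubule mean as a covariate their values were 0.24 and -0.02.

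Hlf, the PAR bZIP relative of Dbp and Tef, had a negative value as Tef did. It stood at 103.2, 115.6 and 112.2 CPM in KO libraries, against 139.1, 149.9 and 136.8 CPM in CTRL libraries (log2 fold change -0.36, SE 0.09, edgeR adjusted p = 0.0756). Every KO library lay below every CTRL library, as for 19.6% of tested genes. Groups did not overlap for 12 of the 26 other clock genes (46.2%), near the 41.5% of tested genes. DESeq2 called Timeless, Csnk1e, Hlf and Prkaa2. Bhlhe40, a repressor of E-box genes, had a value of -0.39 (edgeR adjusted p = 0.107), the AMP kinase subunit Prkaa2 of -0.49 (adjusted p = 0.109) and the ubiquitin ligase subunit Fbxw11 of -0.20 (adjusted p = 0.126). The nuclear RNA-binding protein gene Sfpq had a value of 0.34 (adjusted p = 0.132) and the F-box gene Fbxl21 of -0.68 (adjusted p = 0.149). Under the proximal tubule covariate Prkaa2 stood at 0.04, Fbxl21 at 0.17, Bhlhe40 at -0.06, Hlf at -0.24, Fbxw11 at -0.21 and Sfpq at 0.16. Without KO 146 edgeR called 2 of the 26 higher, Timeless and Csnk1e, and 4 lower, Hlf, Bhlhe40, Prkaa2 and Fbxw11, against a background of 10.5% higher and 6.62% lower among genes tested without KO 146.

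Genes that the clock is known to drive in kidney or liver had 7 positive and 14 negative values, where 49.3% of tested genes had a positive one. Of 22 such output genes, 21 were tested (Avpr2 was too low), and edgeR and limma-voom called 0. At an unadjusted p below 0.05 edgeR gave 3 higher and 8 lower, against 29.3% of tested genes in either direction, and DESeq2 called 1 higher and 6 lower, against 11.7% and 5.65% of tested genes. The median was -0.20, and -0.05 with the proximal tubule covariate. Sgk1, the kinase that raises sodium transport, stood at 305.6, 165.9 and 132.5 CPM in KO libraries, against 70.5, 59.9 and 87.1 CPM in CTRL libraries (log2 fold change 1.47, SE 0.32, edgeR adjusted p = 0.0753). Gys2, a glycogen synthase, stood at 8.81, 9.61 and 11.8 CPM in KO libraries, against 22.4, 17.3 and 16.2 CPM in CTRL libraries (-0.89, SE 0.17, adjusted p = 0.0703). The sodium-proton exchanger gene Slc9a3 had a value of -0.62, the P450 reductase gene Por of -0.52, the water channel gene Aqp2 of -0.52 and Nampt, of NAD synthesis, of -0.29, with edgeR adjusted p values of 0.0770 to 0.0980. Aqp2 also belongs to a list of 12 markers of the loop, distal nephron and collecting duct. All 12 had negative values (median -0.45). Their mean lay at -0.80, -0.35 and -0.21 (log2) from the CTRL mean in KO 146, 147 and 148. With the proximal tubule covariate the values were 0.26 for Sgk1, -0.515 for Gys2, -0.16 for Slc9a3, -0.12 for Por, -0.91 for Aqp2 and -0.09 for Nampt.

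Glucocorticoids and immediate-early signals can also switch on Per1, so both responses were read beside it. Of 15 glucocorticoid response genes edgeR called 0 (2 higher and 4 lower at an unadjusted p below 0.05), DESeq2 4 and limma-voom 0, with a median of 0.12. The backgrounds are 29.3% of tested genes for the unadjusted p and 17.3% for DESeq2, here and for the immediate-early genes. Sgk1, described above, is in this list as well as among the output genes. Cdkn1a, a cell cycle inhibitor, had a value of 0.96 (edgeR adjusted p = 0.0594) and Errfi1, a feedback inhibitor of EGF receptors, of -0.78 (adjusted p = 0.0781). The steroid dehydrogenase genes Hsd11b1 and Hsd11b2 had values of -0.70 and -0.54, and Fkbp5, a sensitive glucocorticoid target, of -0.44 (edgeR adjusted p = 0.0775, 0.130 and 0.125). Hsd11b2, like Aqp2, is also in the list of loop, distal nephron and collecting duct markers, all of which had negative values. Under the proximal tubule covariate Cdkn1a stood at 0.47, Errfi1 at -0.12, Hsd11b1 at -0.89, Hsd11b2 at 0.09 and Fkbp5 at -0.12. Of 18 immediate-early genes edgeR called 0 (2 higher and 0 lower at an unadjusted p below 0.05), DESeq2 1, the nuclear receptor gene Nr4a2, and limma-voom 0, with a median of 0.08. The values were 1.35 for Nr4a2, 0.61 for Fosl2, 0.86 for Egr3, 0.25 for Dusp1, 0.25 for Jun and 0.38 for Nr4a1, with edgeR adjusted p values from 0.109 to 0.387. With the proximal tubule mean as a covariate 5 of these values were negative (Nr4a2 -0.18, Fosl2 -0.285, Dusp1 -0.24, Jun -0.11 and Nr4a1 -0.49) and Egr3 stood at 0.31. The whole list summed to 663, 715 and 624 CPM in KO 146, 147 and 148, against 592, 752 and 615 CPM in CTRL 157, 162 and 163, and the groups overlapped.

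The genes whose levels ran most like those of Arntl and Dbp over the 6 libraries were found among 10864 protein-coding genes by Pearson correlation of log2 CPM, as a description of 6 points that include KO 146. For Arntl these were Nisch (r = 0.984), Fchsd1 (0.975), Atm (0.975), Vps52 (0.973) and Pa2g4 (0.963). For Dbp they were Rnf114 (r = 0.988), Ikzf5 (0.977), Elk4 (0.976), Ttc39b (0.969) and Cops7b (0.966). The clock members were left out of this search beforehand, so it does not show whether Arntl and Dbp ran like other members. None of the genes found is among the 26 other genes of the clock.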

How the data were processed

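Each library has 1 table of raw, unnormalized counts for mouse Ensembl genes, as deposited by the authors. The submitters' processing notes name DESeq2, HTSeq 0.11.1, STAR 2.6.0 and fastp 0.19.5 without saying what each did. They give GRCh37 as the build, which is human, so the alignment build is uncertain. Strand setting and annotation release were not stated. The tables end in 5 lines that name no gene, which were left out. Of all records, reads with several alignments made up 22.51% to 29.63%, reads in no feature 2.57% to 3.41%, ambiguous reads 1.55% to 1.79%, unaligned reads 0.7% to 1.22% and low-quality alignments 0.13% to 0.15%.

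Names and positions came from GENCODE M21 on GRCm38, which named 54809 of 54838 identifiers. In R 4.3.3, edgeR 4.0.16 (TMM, filterByExpr with a minimum count of 10, robust quasi-likelihood F test, no covariate) compared KO with CTRL, with Benjamini-Hochberg adjustment over all tested genes and a threshold of 0.05. DESeq2 1.42.0 and limma 3.58.1 were alternatives, with other scalings, filters, a proximal tubule covariate and leaving out each library. SE is the absolute log2 fold change over the square root of F, and 95% intervals use the fit's degrees of freedom. The test was tried on simulated data in which 200 genes changed and every gene had the same dispersion (spread beyond sampling noise). That dispersion was not taken from these libraries, so the trial does not check the test at their spread. Nothing in the labels says that animals share litters, and p-values measure the spread between these libraries. Within groups, no pair of libraries agreed within sampling noise. Chi-square per degree of freedom was 16.7 to 18.4 for CTRL pairs and 27.1 for KO 147 with KO 148. It was 175.7 and 298.6 for KO 146 with KO 147 and KO 148. The fit and the within-group SD pool the spread of both groups, although it was larger among KO libraries.

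The members and gene lists were chosen with earlier results of these data known. All members are named. From the other lists the genes with the smallest adjusted p are named, 8 for the other clock genes and 6 for the rest, and for Arntl and Dbp the 5 most alike genes averaging 5 CPM or more. Log2 CPM used a prior count of 2.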

Additional observations from a re-analysis of the deposited data

How the results depend on the processing

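Over 13 alternatives, 113 of 130 values of the 10 clock genes kept their direction and their side of the threshold. With the proximal tubule mean as a covariate the sign turned for Arntl (-0.46), Clock (-0.29), Per2 (-0.48), Per3 (-0.15), Cry1 (-0.25), Nr1d1 (-0.54), Nr1d2 (-0.22) and Dbp (-0.24). None of them was called, and the cause was not tested. The slope of the covariate rests mainly on the differences among the KO libraries, and the fit separates covariate and label poorly. Leaving out 1 library gave ranges of -0.19 to 0.24 for Arntl, -0.045 to 0.239 for Clock, -0.13 to 0.15 for Per2 and -0.018 to 0.142 for Nr1d2. Calls among the clock genes ranged from 0 to 1 with a library left out (Tef without KO 146, Cry1 without KO 148). Over all genes the 173 calls became 960 with no filter, 339 with the covariate, 2959 with DESeq2, and 2 to 3211 with a library left out. Dropping KO 146, 147 or 148 gave 2974, 2 or 3211 calls, and dropping CTRL 157, 162 or 163 gave 2, 3 or 10. DESeq2 called 4 of 26 other clock genes, 7 of 21 output genes, 4 of 15 glucocorticoid genes and 1 of 18 immediate-early genes, against 17.3% of tested genes. The fit with no filter called 3 of 22 output and 3 of 15 glucocorticoid genes, against 2.72%. With a library left out these lists ranged from 0 to 6, 0 to 9, 0 to 6 and 0 to 1 calls. Calls above 0 came only without KO 146 or KO 148, where 17.2% and 18.3% of tested genes were called. Scaling by library totals moved the median of all genes to 0.13. No paired analysis was made because the labels state no pairing, and whether animals share a litter or a batch is not known. Arntl had the fewest counts, 62 to 156 per library, and whether depth limits its interval was not tested.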
